A study of Mus musculus with 21 samples.

Results

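Gene expression in whole lung was compared 12 h after a fungal extract and 12 h after albumin. Female BALB/c mice, 8 weeks old, had received 20 µg of MACA or of bovine serum albumin (BSA) in 50 µl of Hank's balanced salt solution (HBSS), aspirated once into the trachea. MACA is a crude preparation of antigens from Metarhizium anisopliae, a fungus, BSA is a foreign protein given at the same dose, and the salt solution was shared by all groups. The comparison was chosen by the array titles, which give 3 MACA 12 h arrays and 4 BSA 12 h arrays, 7 of the 21 arrays of the series. The arrays of vehicle alone at 12 h (HBSS, n = 4), and of MACA (n = 4), BSA (n = 3) and HBSS (n = 3) at 3 h, were measured in the same way. Each array was called a biological replicate and carried RNA of 1 left lung homogenised whole, with no cells sorted, so that fewer cells of a type and less RNA per cell cannot be told apart. The labels set agents of high against low allergenicity, and the comparison asks which lung transcripts the extract moves beyond a protein given in the same way.

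Fungal cell wall sugars and proteases are met in the airways by lectins, scavenger and Toll-like receptors on macrophages, dendritic cells and epithelium. These receptors switch on NF-kB, whose targets include chemokines, cytokines and the pathway's own inhibitors, while interferons act through STAT and IRF factors on the interferon-stimulated genes. Neutrophils follow the chemokines of the Cxcl1 type, monocytes follow Ccl2, and Ccl17, Ccl22 and Ccl24 are known for drawing Th2 cells and eosinophils in allergic lungs. Serum amyloid A and lipocalin-2 belong to the acute phase response, which lung epithelium makes as well as liver.

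The values are intensities on a linear scale, brought to 1 distribution by quantile normalization, and values below 0 were set to 0. Folds are log2 differences of (value + 16), MACA 12 h minus BSA 12 h, given with the standard error (SE), and the test was limma's with Benjamini-Hochberg adjustment over 12393 genes at a threshold of 0.05. Folds on this scale understate the change of dim genes. A gene at or below the noise level, an intensity of 40.9, on every array of a group has only a bound, written as at least N-fold, for which its value on each array was replaced by that level where lower and compared with the mean of the other group. Values of single arrays follow the replicate numbers, so the first BSA value is always that of replicate 1.

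BSA 12 h replicate 1 stood apart from the other BSA lungs, and in the direction of the MACA lungs. On the first principal component of all 21 arrays, which took 23.6% of the variance, it scored 8.47, against 18.8 to 28.7 for the MACA 12 h arrays and -16.2 to -11.2 for the other 3 BSA 12 h arrays. Saa3, an acute phase protein, had 7054, 8421 and 7601 intensity units in MACA lungs, against 3608, 262, 512 and 819 in BSA lungs. Timp1, an inhibitor of matrix metalloproteinases, had 3257, 4852 and 4162 in MACA lungs, against 2175, 427, 353 and 454 in BSA lungs. Il6, the cytokine that drives the acute phase response, had 187, 212 and 191 in MACA lungs, against 179, 14.4, 12.8 and 34.6 in BSA lungs. In each of these replicate 1 lay above the other BSA lungs, and for Il6 it lay next to the MACA lungs. Cxcl10, an interferon-inducible chemokine, had 294, 867 and 382 in MACA lungs, against 38.5, 12.9, 47.5 and 31.6 in BSA lungs, and there replicate 1 lay among the other BSA lungs. S100a8, a neutrophil calcium-binding protein, had 3324, 2109 and 1454 in MACA lungs, against 2195, 1086, 1154 and 994 in BSA lungs, so that replicate 1 lay within the range of the MACA lungs.

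Taken over whole lists, the same array was high in some lists and not in others. The offset is the median over a list's members of the log2 value minus the mean of BSA replicates 2 to 4. For neutrophil markers it was 1.07, 0.86 and 0.48 in MACA lungs, 0.89 in BSA replicate 1 and -0.02 to 0.08 in the other BSA lungs. For acute phase genes it was 0.90, 1.10 and 0.89 in MACA lungs, 0.54 in BSA replicate 1 and -0.05 to 0.09 in the other BSA lungs, and for CC chemokines 1.81, 1.28 and 1.81 in MACA lungs, 0.81 in BSA replicate 1 and -0.08 to 0.17 in the other BSA lungs. For interferon-stimulated genes it was 0.58, 0.93 and 0.68 in MACA lungs, 0.03 in BSA replicate 1 and -0.11 to 0.14 in the other BSA lungs. For cardiac and skeletal muscle markers it was -1.05, -1.36 and -0.82 in MACA lungs, -0.14 in BSA replicate 1 and -0.28 to 0.30 in the other BSA lungs. For detoxification enzymes of club cells and the glutathione system, a list with members that fell, it was -0.49, -0.47 and -0.28 in MACA lungs, -0.31 in BSA replicate 1 and -0.08 to 0.20 in the other BSA lungs. Replicate 1 was within the MACA range for neutrophil markers and detoxification enzymes, between the groups for acute phase genes and CC chemokines, and inside the range of the other BSA lungs for interferon and muscle genes.

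**Figure D1:**
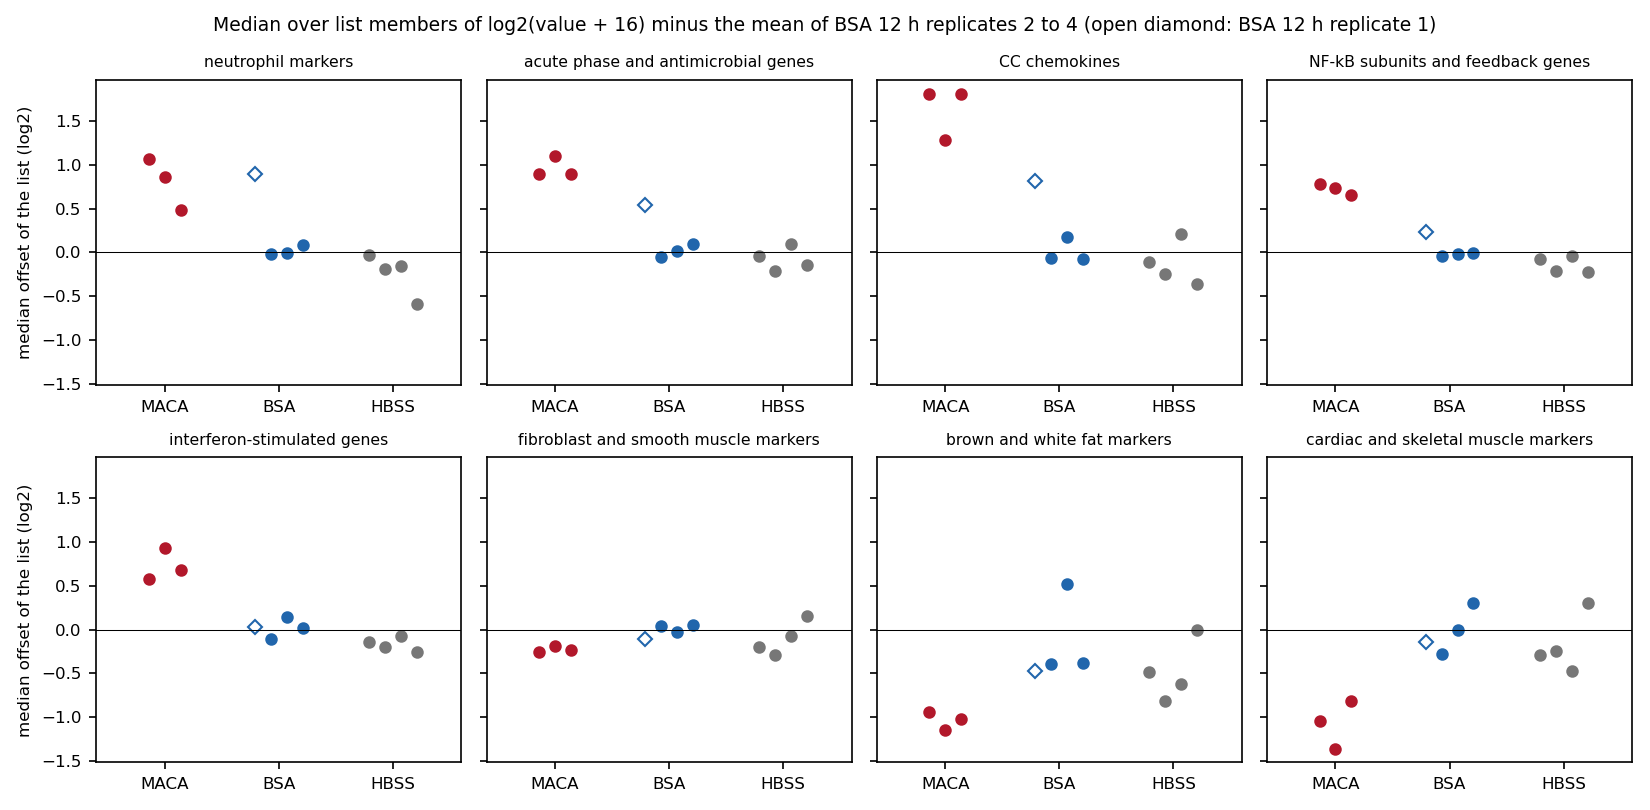
Offset of 8 gene lists on each 12 h array (y axis, median log2 difference from the mean of BSA 12 h replicates 2 to 4; x axis, the MACA, BSA and HBSS groups, 1 point per array, with the open diamond for BSA replicate 1). The diamond lies at 0.89 for neutrophil markers, inside the MACA range of 0.48 to 1.07, and at 0.03 for interferon-stimulated genes, where the MACA arrays lie between 0.58 and 0.93.

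The arrays were also split into 2 sets by the ratio of a pair of probe sets for 1 spiked hybridization control. The pair was searched for as the one whose ratio left the widest gap between arrays relative to its range. The arrays were cut at that gap, so that a split into 2 sets was set by the search. The ratio was 1.62 to 1.91 on 13 arrays, which held all 3 MACA 12 h arrays and BSA 12 h replicates 1 and 2, and 0.939 to 1.22 on 8 arrays, which held all HBSS 12 h arrays beside BSA 12 h replicates 3 and 4. The set has no label in the study. List counts are given with the set as a term in the fit and within the high set, where replicates 1 and 2 are the whole BSA group at 12 h. The labelled tissue was borne out by the surfactant gene Sftpc and the club cell gene Scgb1a1, which were at the top of the range on every 12 h array, where quantile normalization sets values by rank and leaves no fold to read (11117 to 13850.0 and 12569 to 13850.0 units).

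Of 12393 genes, 504 were higher (4.07%) and 692 lower (5.58%) in MACA than in BSA lungs, 1196 in all (9.65%), and the change was 2-fold or more in 145 and 80 of them. Without BSA replicate 1 the counts were 677 higher (5.46%) and 993 lower (8.01%), of which 476 and 643 were among those of the full fit. With the set as a term 340 were higher (2.74%) and 420 lower (3.39%), of which 295 and 350 were shared with the full fit, and within the high set 156 were higher (1.26%) and 273 lower (2.2%). Fitted on the 7 arrays alone, limma called 0 genes, with 2439 at an unadjusted p under 0.05. MACA replicate 2 bore most on the counts: without it 177 genes were higher and 221 lower. The counts were 352 and 445 without BSA replicate 3, 301 and 397 without BSA replicate 4, and 30 and 66 on the deposited values with no scaling between arrays. The 3 MACA values lay wholly above the 4 BSA values for 962 genes (7.76%) and wholly below for 1312 (10.6%). The median log2 fold of all genes was -0.03.

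The genes with the highest folds included the following 5, picked among genes whose groups did not overlap, so that non-overlap holds by choice. Saa1, serum amyloid A1, had 823, 1032 and 883 intensity units in MACA lungs, against 165, 18.0, 10.5 and 19.0 in BSA lungs, and 15.04 to 41.7 in HBSS lungs. Every MACA value was above every BSA value, and the log2 fold was 4.24 ± 0.49 (SE, adjusted p = 0.000182). Acod1, the enzyme that makes itaconate in activated macrophages, had 405, 373 and 395 in MACA lungs, against 269, 0, 0 and 2.12 in BSA lungs, and 0 to 18.9 in HBSS lungs. Of the BSA lungs replicate 1 alone was above the noise level there. The log2 fold of Acod1 was 3.58 ± 0.77 (adjusted p = 0.00824), and 4.61 without that lung. The latter is a fitted value and no bound, as the BSA lungs left were all under the noise level. Gpr84, a fatty acid receptor of activated macrophages, had 287, 212 and 186 in MACA lungs, against 19.8, 3.92, 2.92 and 7.35 in BSA lungs, with no overlap. It was at least 4.23-fold higher in MACA lungs (adjusted p = 7.62e-05). Tnfrsf9, the costimulatory receptor 4-1BB, had 269, 433 and 342 in MACA lungs, against 115, 30.6, 0 and 0 in BSA lungs, and the log2 fold was 3.34 ± 0.59 (adjusted p = 0.00285). Slc26a4, the anion exchanger pendrin of airway epithelium, had 1845, 2281 and 1887 in MACA lungs, against 632, 47.6, 291 and 282 in BSA lungs. The BSA values of Slc26a4 spread widely, and its log2 fold of 3.02 ± 0.73 (adjusted p = 0.016) lost its call without MACA replicate 2 (adjusted p = 0.0704).

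The genes with the lowest folds included the following, picked in the same way, so that non-overlap again holds by choice. It held for 634 of the 692 lower genes. Car3, a carbonic anhydrase of fat and muscle, had 35.8, 58.0 and 73.7 in MACA lungs, against 375, 1021, 4029.9 and 669 in BSA lungs, and 574 to 1851 in HBSS lungs. The groups did not overlap (log2 fold -3.88 ± 0.81, adjusted p = 0.00738), and BSA replicate 3 stood far above the other BSA lungs. Gsta2, a glutathione transferase, had 53.0, 62.1 and 75.9 in MACA lungs, against 707, 931, 165 and 217 in BSA lungs, with a log2 fold of -2.38 ± 0.48 (adjusted p = 0.00608). Within the BSA group Gsta2 was high in replicates 1 and 2 and low in replicates 3 and 4, the same split as the hybridization-control sets. In the high set alone its log2 fold was -3.39 (adjusted p = 5.79e-05). Acaa1b, a peroxisomal thiolase of fatty acid oxidation, had 28.0, 14.9 and 31.9 in MACA lungs, against 121, 239, 174 and 214 in BSA lungs and was at least 3.47-fold lower in MACA lungs (adjusted p = 0.000588). Fabp1, the liver form of fatty acid binding protein, had 15.4, 25.6 and 38.0 in MACA lungs, against 84.2, 123, 111 and 144 in BSA lungs and was at least 2.28-fold lower (adjusted p = 0.00305). Every MACA lung was at or under the noise level for both. Bex2, a brain-expressed X-linked gene, had 95.1, 101 and 172 in MACA lungs, against 551, 579.8, 534 and 348 in BSA lungs (log2 fold -1.92 ± 0.23, adjusted p = 0.000241). Scara5, a scavenger receptor known for ferritin uptake, had 52.7, 21.02 and 60.2 in MACA lungs, against 139, 227, 217 and 204 in BSA lungs (log2 fold -1.85 ± 0.25, adjusted p = 0.000594). For Bex2 and Scara5 all MACA values were under all BSA values, and neither call changed when any 1 of the 7 arrays was left out. Among the 15 lowest were also Csrp3, a cardiac muscle LIM protein (log2 fold -1.85 ± 0.33, adjusted p = 0.00331), Syt17, a synaptotagmin (log2 fold -1.58 ± 0.18, adjusted p = 0.000136), and Krtap5-1, a keratin-associated protein gene (at least 1.32-fold lower, adjusted p = 0.00608). Ppp1r1b, a phosphatase inhibitor, was at 0 in all MACA lungs and at 23.2 to 61.6 in BSA lungs, which gives no fold at this noise level (adjusted p = 0.0149, and adjusted p = 0.0637 once the set was a term).

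**Figure D2:**
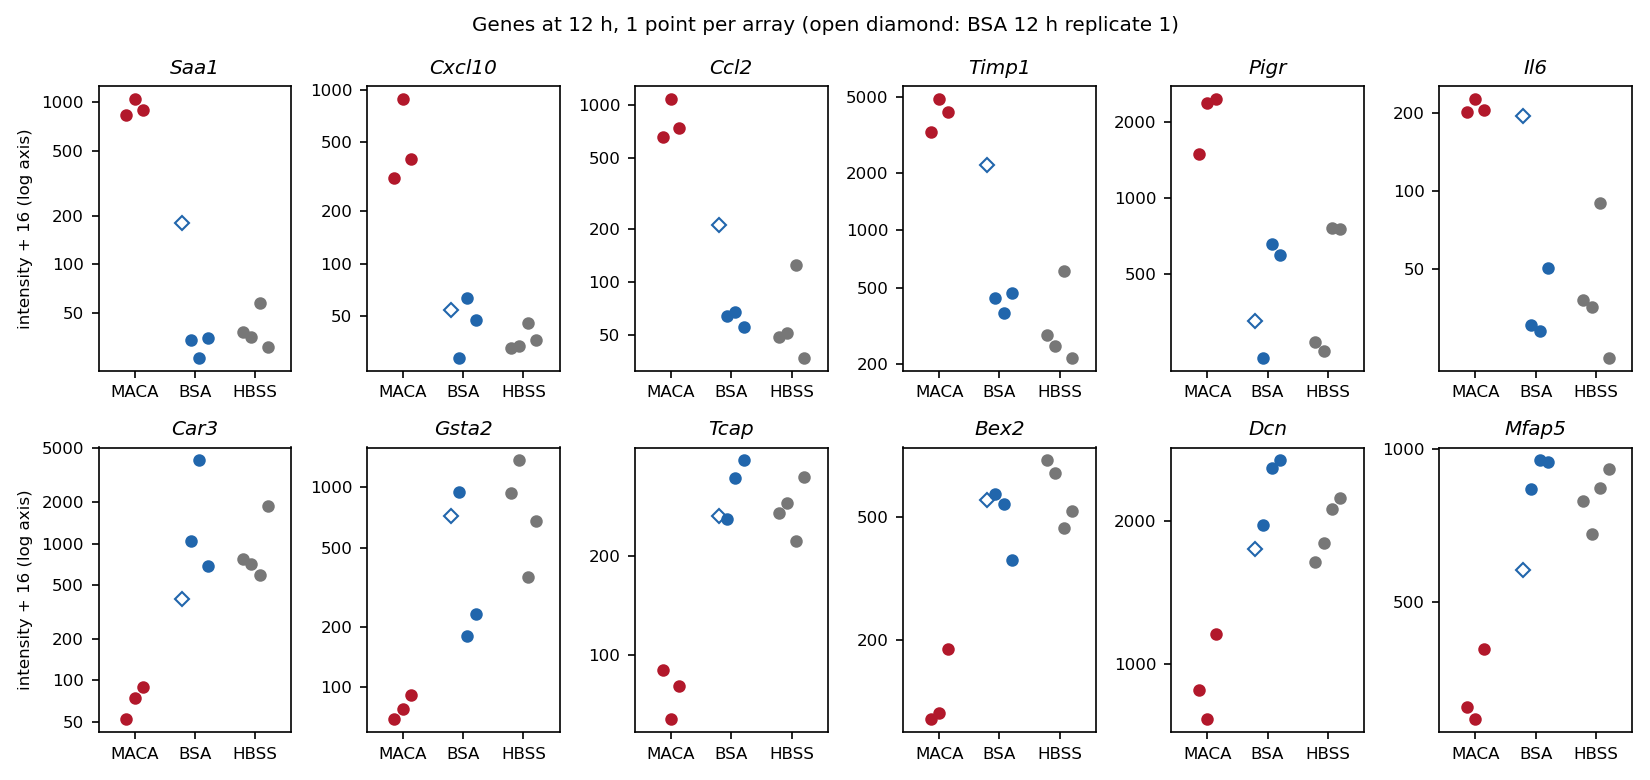
Intensity plus 16 (log axis) of 12 genes on each 12 h array, with MACA, BSA and HBSS lungs from left to right and the open diamond for BSA 12 h replicate 1. Saa1, Ccl2, Timp1 and Il6 put the diamond above the other BSA points, while Cxcl10, Pigr, Gsta2, Tcap and Bex2 place it among them. For Car3, Dcn and Mfap5 the diamond is the lowest BSA point, the nearest to the MACA points.

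The promoters of 4 genes that stand for the main groups are shown because the groups that rose are known for different factors. They are the 250 bases before the transcription start, from RefSeq on GRCm38.p6, 5′ to 3′ on the gene's strand. Capitals mark matches, on either strand, to the interferon-stimulated response element ISRE (GAAA, NN and GAAA), to the NF-kB consensus or to C/EBP (TTGCNNAA). Cxcl10 stands for the interferon-inducible chemokines (chr5:92348890-92349139, minus strand), Ifit1 for the interferon-stimulated genes (chr19:34640639-34640888, plus strand), Saa3 for the acute phase genes (chr7:46715677-46715926, minus strand) and Cxcl1 for the neutrophil chemokines (chr5:90890995-90891244, plus strand).
Cxcl10: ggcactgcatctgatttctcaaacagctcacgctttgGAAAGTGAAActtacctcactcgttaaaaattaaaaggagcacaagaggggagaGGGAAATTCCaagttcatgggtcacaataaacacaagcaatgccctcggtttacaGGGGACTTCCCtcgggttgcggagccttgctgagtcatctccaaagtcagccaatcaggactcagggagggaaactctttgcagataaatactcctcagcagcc
Ifit1: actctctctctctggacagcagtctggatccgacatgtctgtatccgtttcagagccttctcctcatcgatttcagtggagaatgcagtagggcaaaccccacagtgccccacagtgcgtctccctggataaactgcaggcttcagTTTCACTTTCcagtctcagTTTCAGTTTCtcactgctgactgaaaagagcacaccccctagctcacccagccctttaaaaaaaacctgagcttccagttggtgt
Saa3: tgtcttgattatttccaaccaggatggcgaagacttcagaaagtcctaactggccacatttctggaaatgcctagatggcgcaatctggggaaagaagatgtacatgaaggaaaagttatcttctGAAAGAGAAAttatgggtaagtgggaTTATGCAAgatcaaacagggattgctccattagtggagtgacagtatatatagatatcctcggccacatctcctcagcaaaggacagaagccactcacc
Cxcl1: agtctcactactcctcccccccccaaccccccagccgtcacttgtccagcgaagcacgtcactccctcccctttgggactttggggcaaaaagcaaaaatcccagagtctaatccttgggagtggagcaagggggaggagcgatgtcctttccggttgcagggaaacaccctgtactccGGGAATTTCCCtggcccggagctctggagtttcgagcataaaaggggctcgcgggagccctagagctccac

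In the promoter of Cxcl10 an ISRE match began at -213 from the start and NF-kB matches began at -159, -104 and -103, of which the last pair overlap. Ifit1 held ISRE matches at -104 and -85, Saa3 an ISRE match at -125 and a C/EBP match at -99, and Cxcl1 overlapping NF-kB matches at -71 and -70. Over windows from 250 bases before to 50 after the start, which 9887 of the tested genes had, ISRE matches were in 3.84% of all genes, in 7.71% of the 402 higher genes and in 3.28% of the 549 lower genes. NF-kB consensus matches were in 12% of all, 16.9% of the higher and 13.3% of the lower genes. C/EBP matches were in 11.1% of all, 12.7% of the higher and 12% of the lower genes. By list, 12 of 21 interferon-stimulated genes held an ISRE match, 9 of 15 NF-kB genes an NF-kB match and 15 of 26 acute phase genes a C/EBP match. A match describes letters and is no evidence of binding.

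Among chemokines, 7 of 14 CXC members rose and 1 fell, and 10 of 18 CC members rose and 0 fell. The median log2 folds were 0.38 and 1.30, beside -0.03 for all genes. Without BSA replicate 1 the counts were 7 higher and 1 lower CXC members and 12 higher CC members. With the set as a term they were 6 higher and 1 lower, and 8 higher. Within the high set they were 3 higher CXC and 5 higher CC members. With 1 array left out the CXC members higher were 3 to 7 and the CC members 6 to 12, the fewest without MACA replicate 2. Cxcl10, named above, rose by 3.35 ± 0.42 (log2 fold, adjusted p = 0.000429). The HBSS lungs had 16.8 to 29.9 units of it, and MACA replicate 2 was the highest. Its relatives for the same receptor, Cxcl9 and Cxcl11, were at or under the noise level in all BSA lungs. Cxcl9 had 72.7, 185 and 149.7 in MACA lungs, against 2.71, 1.40, 14.9 and 0 in BSA lungs and was at least 2.52-fold higher (adjusted p = 0.000613), and Cxcl11 had 47.5, 111 and 113 in MACA lungs, against 0, 6.33, 11.8 and 5.48 in BSA lungs and was at least 1.78-fold higher (adjusted p = 0.000613). For all 3 interferon-inducible chemokines BSA replicate 1 was as low as the other BSA lungs.

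The neutrophil chemokines behaved otherwise with regard to that lung. Cxcl1 had 994, 1665 and 1645 in MACA lungs, against 678, 100.4, 52.9 and 113 in BSA lungs (log2 fold 3.11 ± 0.71, adjusted p = 0.012, 3.81 without replicate 1). Cxcl5, made by alveolar epithelium, had 508, 887 and 885 in MACA lungs, against 473, 102, 36.6 and 58.4 in BSA lungs (log2 fold 2.62 ± 0.58, adjusted p = 0.0104, 3.28 without it). In both, replicate 1 came close to the lowest MACA lung, and both calls were lost without MACA replicate 2 (adjusted p = 0.0601 and 0.0575). Cxcl2 had 623, 568 and 491 in MACA lungs, against 576, 45.4, 25.1 and 60.8 in BSA lungs, so that the groups overlapped through replicate 1. Its fold of 2.47 ± 0.75 (adjusted p = 0.0471) was not past the threshold with the set as a term (adjusted p = 0.136), nor when any 1 of the other 6 arrays was left out (adjusted p = 0.0943 to 0.139), and was 3.31 without replicate 1 (adjusted p = 0.00163). Ppbp, a platelet chemokine precursor, fell, with 213, 250.1 and 261 in MACA lungs, against 423, 420.3, 381 and 589 in BSA lungs (log2 fold -0.85 ± 0.20, adjusted p = 0.0118). Among neutrophil markers 5 of 16 rose and 0 fell, and 10 had a positive fold. Without BSA replicate 1 the count was 7 higher, and it was 0 with the set as a term, within the high set or without MACA replicate 1. With the set as a term and BSA replicate 1 left out, 6 neutrophil markers rose. Their summed intensity was 14115 to 19410.1 in MACA lungs, against 6072 to 15459.7 in BSA lungs, which overlap. Their part in the chemokine differences was not tested.

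The monocyte chemokines were higher in all MACA lungs. Ccl2 had 645, 1062 and 722 in MACA lungs, against 195, 48.0, 51.7 and 39.5 in BSA lungs, and 21.3 to 108 in HBSS lungs (log2 fold 3.26 ± 0.50, adjusted p = 0.00118). Ccl7 had 212, 479.9 and 228 in MACA lungs, against 81.2, 22.6, 39.6 and 22.3 in BSA lungs (log2 fold 2.50 ± 0.42, adjusted p = 0.00204), and Ccl12 had 209, 389 and 247 in MACA lungs, against 101, 33.7, 47.3 and 26.2 in BSA lungs (log2 fold 2.20 ± 0.29, adjusted p = 0.000567). None of the 3 overlapped between groups, although BSA replicate 1 was the highest BSA lung each time. Ccl3, a macrophage chemokine, had 328, 208 and 233 in MACA lungs, against 239, 12.9, 0 and 7.87 in BSA lungs and overlapped. Its fold of 2.71 ± 0.77 (adjusted p = 0.0365) was not past the threshold with the set as a term (adjusted p = 0.125) or when any 1 of the other 6 arrays was left out (adjusted p = 0.0734 to 0.104).

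Ccl24, the eotaxin of macrophages, showed a sharper split, with 76.7, 316 and 204 in MACA lungs, against 26.9, 0, 4.14 and 0 in BSA lungs and 0 in all HBSS lungs. It was at least 3.33-fold higher in MACA lungs (adjusted p = 0.00124). Ccl22 had 481, 423 and 369 in MACA lungs, against 135, 25.4, 136 and 126 in BSA lungs (log2 fold 2.02 ± 0.43, adjusted p = 0.00808). Ccl17, its partner on the receptor Ccr4, had 524, 503 and 492 in MACA lungs, against 156, 51.0, 227 and 160.4 in BSA lungs (log2 fold 1.81 ± 0.43, adjusted p = 0.0144). BSA replicate 2 was the lowest of the BSA lungs in both, and the Ccl17 call was lost without MACA replicate 2 (adjusted p = 0.058). Ccl11, the eotaxin of stroma and epithelium, did not pass, with 179, 47.9 and 92.0 in MACA lungs, against 77.2, 11.1, 15.3 and 21.1 in BSA lungs (adjusted p = 0.0739), and passed without BSA replicate 1 (adjusted p = 0.0151). Of 19 chemokine receptors 2 rose and 2 fell, 4 and 1 without BSA replicate 1, 2 and 0 with the set as a term, and 0 and 1 within the high set. Ccr1, the receptor of Ccl3 on monocytes and neutrophils, rose by 1.66 ± 0.31 (log2 fold, adjusted p = 0.00439), and Ackr1, the endothelial scavenger of chemokines, by 1.07 ± 0.20 (adjusted p = 0.0047). Cxcr2, the neutrophil receptor of Cxcl1, had 78.8, 52.6 and 43.0 in MACA lungs, against 64.2, 0, 0 and 0 in BSA lungs and was not past the threshold (adjusted p = 0.0936, and adjusted p = 0.00762 without replicate 1).

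Of 25 inflammatory cytokines and growth factors 8 rose and 1 fell, with the same counts without BSA replicate 1, 6 and 1 with the set as a term, and 2 and 2 within the high set. With 1 array left out 5 to 8 rose. Their median log2 fold was 0.56, and 0.00 with members that were dim put at their bound. Tnf had 204, 121 and 103 in MACA lungs, against 35.4, 0, 0.570 and 4.19 in BSA lungs and 0 in all HBSS lungs, and was at least 2.69-fold higher (adjusted p = 0.00336). Il1rn, the natural antagonist of the interleukin-1 receptor, had 1065, 691 and 623 in MACA lungs, against 482, 89.3, 59.7 and 76.5 in BSA lungs (log2 fold 2.51 ± 0.54, adjusted p = 0.00879). For both, every MACA lung was above every BSA lung, and BSA replicate 1 was the highest of its group. Il33, an epithelial alarmin, had 1482, 1773 and 1690.4 in MACA lungs, against 1117, 687, 539.5 and 601 in BSA lungs (log2 fold 1.20 ± 0.22, adjusted p = 0.00359). Csf1, the macrophage growth factor, had 837, 775 and 696 in MACA lungs, against 386, 303, 373 and 359 in BSA lungs (log2 fold 1.08 ± 0.18, adjusted p = 0.00159). The 3 MACA lungs were above the 4 BSA lungs for Il33 and Csf1 too. Il1b had 2059, 1779 and 1345 in MACA lungs, against 1203, 245, 162 and 343 in BSA lungs (log2 fold 2.19 ± 0.60, adjusted p = 0.0292), and Il6, given above, had a fold of 1.97 ± 0.57 (adjusted p = 0.0398). These 2 calls were lost with the set as a term (adjusted p = 0.102 and 0.115) and when any 1 of the 6 arrays other than BSA replicate 1 was left out (adjusted p = 0.0539 to 0.1 for Il1b and 0.0844 to 0.131 for Il6). Without replicate 1 the fold was 2.75 for Il1b (adjusted p = 0.00297) and 2.58 for Il6 (adjusted p = 0.00187). That of Il6 is a fitted value and no bound, as the BSA lungs left were all under the noise level. Il18, processed by the inflammasome, fell, with 356, 299 and 293 in MACA lungs, against 489, 594, 457 and 534 in BSA lungs (log2 fold -0.68 ± 0.17, adjusted p = 0.0166), a call lost without MACA replicate 2 (adjusted p = 0.0762) or 3 (adjusted p = 0.0616).

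Among 30 cytokine and TNF family receptors 11 rose and 0 fell, 13 without BSA replicate 1, 6 with the set as a term and 2 within the high set, and 27 had a positive fold. Without MACA replicate 2 the count was 4. After Tnfrsf9, the list's largest folds were in Il1r2, the decoy receptor of interleukin-1, with 1.73 (adjusted p = 0.0137, and adjusted p = 0.0632 without MACA replicate 1), Csf3r, the neutrophil growth factor receptor, with 1.57 (adjusted p = 0.0272), and Tnfrsf1b, the second TNF receptor, with 1.24 (adjusted p = 0.00118). The calls of Il1r2 and Csf3r, both also neutrophil markers, were lost with the set as a term (adjusted p = 0.058 and 0.1). Csf3r had 929, 505 and 389.5 in MACA lungs, against 438, 149, 99.0 and 159 in BSA lungs, and its adjusted p was 0.0309 to 0.123 when 1 of the 6 arrays other than BSA replicate 1 was left out, past the threshold only without MACA replicate 3.

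Fungal and microbial sensing receptors counted 10 higher of 26 and 0 lower, 10 without BSA replicate 1, 3 with the set as a term, 0 within the high set, and 4 without MACA replicate 1, MACA replicate 2 or BSA replicate 3. With the set as a term and BSA replicate 1 left out, 8 rose. Clec4e, the lectin Mincle, had 586, 382 and 318 in MACA lungs, against 161, 61.4, 14.8 and 30.4 in BSA lungs (log2 fold 2.70 ± 0.58, adjusted p = 0.00824). Msr1, a macrophage scavenger receptor, had 223, 484 and 341 in MACA lungs, against 131, 67.2, 36.0 and 72.1 in BSA lungs (log2 fold 2.01 ± 0.33, adjusted p = 0.00177). The calls of both held with the set as a term (adjusted p = 0.038 and 0.00899) and without any 1 array. Marco, a scavenger receptor of alveolar macrophages, had 102, 154 and 100.3 in MACA lungs, against 57.4, 0, 12.5 and 52.7 in BSA lungs, lower in BSA replicates 2 and 3 than in 1 and 4 (log2 fold 1.77 ± 0.45, adjusted p = 0.0198). That call was lost with the set as a term (adjusted p = 0.0629) and without MACA replicate 2 (adjusted p = 0.0993) or BSA replicate 3 (adjusted p = 0.0562). Clec4d, the partner lectin of Mincle, had a fold of 1.64 ± 0.46 (adjusted p = 0.0324), lost with the set as a term (adjusted p = 0.131) and without any 1 of the 6 arrays other than BSA replicate 1 (adjusted p = 0.0646 to 0.113). Cd14, the Toll-like receptor cofactor, was not past the threshold (log2 fold 0.87, adjusted p = 0.274).

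NF-kB genes counted 10 of 17 higher and 1 lower, 10 and 1 without BSA replicate 1, 10 and 0 with the set as a term, and 1 and 0 within the high set. With 1 array left out 8 to 10 rose. The list holds the subunits of the pathway and its brakes. Zc3h12a, an RNase that degrades cytokine messages, had 217, 176 and 151 in MACA lungs, against 84.5, 53.2, 58.6 and 53.1 in BSA lungs (log2 fold 1.34 ± 0.21, adjusted p = 0.0013). Bcl3, a nuclear I-kB protein, had 376, 475 and 425 in MACA lungs, against 251, 148, 109 and 162 in BSA lungs (log2 fold 1.32 ± 0.27, adjusted p = 0.00728). Nfkb2, the p100 subunit, had 585, 775 and 596 in MACA lungs, against 427, 258, 201 and 225 in BSA lungs (log2 fold 1.23 ± 0.22, adjusted p = 0.00331). The groups did not overlap for these 3 genes. Tnfaip2, a TNF-induced gene, rose by 1.27 ± 0.24 (log2 fold, adjusted p = 0.0047). All 4 calls held with the set as a term and without any 1 array. Within the high set their adjusted p was 0.0341 for Zc3h12a, 0.0741 for Bcl3, 0.0984 for Nfkb2 and 0.128 for Tnfaip2. Traf1, a TNF receptor adaptor, fell, with 135, 108 and 113 in MACA lungs, against 148, 188, 200.2 and 192 in BSA lungs (log2 fold -0.55 ± 0.15, adjusted p = 0.0286), and that call was lost with the set as a term (adjusted p = 0.116), without MACA replicate 2 (adjusted p = 0.13) or 3 (adjusted p = 0.0883) and without BSA replicate 2 (adjusted p = 0.057), 3 (adjusted p = 0.074) or 4 (adjusted p = 0.0732). Of 19 SOCS, STAT and Pim genes 4 rose and 0 fell, with 4 without BSA replicate 1, 3 with the set as a term, and 1 within the high set or without MACA replicate 2. In the fit of all arrays they were Socs3, Socs1, Stat2 and Jak3. When 1 of the 7 arrays was left out, the number of fits that lost the call was 6 for Socs1, 4 for Stat2, 1 for Jak3 and 0 for Socs3. That of Socs1 was lost without BSA replicate 1 too (adjusted p = 0.0735). Socs3, which ends interleukin-6 signalling, had 1428, 1891 and 1841 in MACA lungs, against 1053, 646, 412 and 505 in BSA lungs (log2 fold 1.45 ± 0.26, adjusted p = 0.003).

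Of the interferon-stimulated genes 17 of 29 rose, 0 fell, and all 29 had a positive fold, with a median of 0.70. The count was 17 without BSA replicate 1, 15 with the set as a term, 5 within the high set and 8 without MACA replicate 2. It was 11 with the set as a term and BSA replicate 1 left out. Zbp1, a sensor of left-handed nucleic acid, had 279.7, 455 and 319 in MACA lungs, against 117, 56.9, 79.1 and 37.8 in BSA lungs, and 44.6 to 60.1 in HBSS lungs (log2 fold 2.10 ± 0.23, adjusted p = 0.000134). Ifit1, which blocks translation of viral RNA, had 842, 1325 and 965 in MACA lungs, against 314, 275, 372 and 356 in BSA lungs, and 267 to 341 in HBSS lungs (log2 fold 1.60 ± 0.23, adjusted p = 0.000783). The BSA and HBSS lungs lay close together for Ifit1, and all MACA lungs above them. Mx1, a GTPase against influenza viruses, was at or under the noise level in BSA lungs, with 97.8, 138 and 62.8 in MACA lungs, against 32.6, 19.2, 20.8 and 26.2 in BSA lungs, and at least 1.96-fold higher (adjusted p = 0.00547). Oas3, an oligoadenylate synthetase, had 13.3, 74.9 and 57.1 in MACA lungs, against 22.4, 0, 3.41 and 0 in BSA lungs, which overlap, and was at least 1.02-fold higher (adjusted p = 0.0123). The Oas3 call was lost without MACA replicate 2 (adjusted p = 0.0881) or 3 (adjusted p = 0.0561). Iigp1, an interferon-gamma-induced GTPase, did not pass (log2 fold 0.70 ± 0.24, adjusted p = 0.0784). In antigen processing 3 of 13 class I genes rose, 3 without BSA replicate 1, 5 with the set as a term, 4 within the high set and 2 without MACA replicate 2. They were led by Tap1, the peptide transporter, with 551, 553 and 484 in MACA lungs, against 305, 316, 379 and 283 in BSA lungs (log2 fold 0.70 ± 0.14, adjusted p = 0.00478). Of 8 class II genes limma called 0, with 2 higher and 1 lower at an unadjusted p under 0.05, and 1 higher without BSA replicate 1.

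Acute phase and antimicrobial genes counted 13 higher of 30 and 0 lower, 16 without BSA replicate 1, 11 with the set as a term, and 8 within the high set or without MACA replicate 2. One of the 13, Saa4, was at or under the noise level in both groups. Saa2, whose messages are close in sequence to those of Saa1 so that their probe sets may share signal, had 196, 248 and 221 in MACA lungs, against 56.1, 12.0, 18.1 and 17.4 in BSA lungs (log2 fold 2.60 ± 0.28, adjusted p = 0.000134). Hpx, the haem carrier hemopexin, had 225, 442 and 355 in MACA lungs, against 81.5, 59.5, 39.9 and 70.2 in BSA lungs, and 47.9 to 79.6 in HBSS lungs (log2 fold 2.16 ± 0.27, adjusted p = 0.000356). Steap4, a metalloreductase induced in inflammation, had 2003, 2107 and 1904 in MACA lungs, against 913, 390.1, 327 and 393 in BSA lungs (log2 fold 2.07 ± 0.34, adjusted p = 0.0019). In all 3 genes BSA replicate 1 was the highest BSA lung, narrowly for Hpx, and below every MACA lung. Saa3, given above, had a log2 fold of 3.24 ± 0.81 (adjusted p = 0.0196). Lcn2, which binds bacterial siderophores, had 9801, 9766 and 8313 in MACA lungs, against 7008, 2170.3, 2584 and 2629.7 in BSA lungs (log2 fold 1.53 ± 0.41, adjusted p = 0.0261). Once the set was a term the adjusted p was 0.0581 for Saa3 and 0.096 for Lcn2. The Saa3 call was lost without MACA replicate 2 (adjusted p = 0.0782) or 3 (adjusted p = 0.054) and without BSA replicate 2 (adjusted p = 0.0519) or 3 (adjusted p = 0.0541), and the Lcn2 call without any 1 of the 6 arrays other than BSA replicate 1 (adjusted p = 0.0553 to 0.096). Without replicate 1 their folds were 3.95 (adjusted p = 0.00278) and 1.91 (adjusted p = 0.00297). S100a8 was not past the threshold with or without that lung (adjusted p = 0.394 and 0.23).

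Genes of type 2 and alternative activation counted 9 higher of 32 and 0 lower, 9 without BSA replicate 1, 8 with the set as a term, and 5 within the high set or without MACA replicate 2. The median log2 fold was 0.61, and 0.00 with dim members at their bound, and 11 of the 32 were at or under the noise level in both groups, among them Pdcd1lg2, 1 of the 9 called. Besides Ccl24, Slc26a4, Ccl17 and Ccl22, Arg1, the arginase of alternatively activated macrophages, had 98.6, 206 and 157 in MACA lungs, against 30.1, 2.81, 13.3 and 8.88 in BSA lungs and was at least 2.88-fold higher (adjusted p = 0.000872). Rnase2a, an eosinophil-associated ribonuclease, had 71.8, 77.2 and 77.7 in MACA lungs, against 0, 9.22, 0 and 11.9 in BSA lungs and was at least 1.61-fold higher (adjusted p = 0.000833), and the 3 MACA lungs lay within a few units of each other. Fcer2a, the low-affinity IgE receptor CD23, had 460.4, 446 and 373 in MACA lungs, against 245, 124, 122 and 139.6 in BSA lungs (log2 fold 1.40 ± 0.30, adjusted p = 0.00899). Retnla, a resistin-like protein made in allergic lungs, had 8368, 8600.0 and 7914 in MACA lungs, against 4212, 714, 6309 and 5924 in BSA lungs. It did not pass (adjusted p = 0.181), although every MACA lung was above every BSA lung, of which replicate 2 was far below the rest. Clca1, a goblet cell protease, had 58.9, 354 and 228 in MACA lungs, against 16.7, 0, 163 and 907 in BSA lungs and did not pass either (adjusted p = 0.595), with BSA replicate 4 the highest of all 7. Of 15 genes of itaconate, nitric oxide and arginine metabolism 3 rose and 0 fell, with and without BSA replicate 1, with the set as a term and without any other array, and 2 rose within the high set. The 3 were Acod1, Arg1 and Slc7a2, an arginine transporter (log2 fold 1.50 ± 0.29, adjusted p = 0.00532).

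Pigr, which carries IgA across airway epithelium, had 1475, 2341 and 2438 in MACA lungs, against 313, 218, 643 and 580.4 in BSA lungs, and 233 to 749 in HBSS lungs. All MACA lungs were above all BSA lungs, with replicate 1 among the lower BSA values, and the log2 fold was 2.30 ± 0.44 (adjusted p = 0.00478, 2.88 within the high set). Timp1 rose by 2.66 ± 0.49 (adjusted p = 0.00383), and 3.25 without replicate 1. Aldh1a3, which makes retinoic acid, had 240.1, 137 and 133 in MACA lungs, against 110.1, 0, 0 and 4.34 in BSA lungs (log2 fold 2.66 ± 0.68, adjusted p = 0.0212). Its call was lost with the set as a term (adjusted p = 0.0899), and without MACA replicate 1 (adjusted p = 0.0776) or 2 (adjusted p = 0.064) or BSA replicate 2 (adjusted p = 0.0533), 3 (adjusted p = 0.0617) or 4 (adjusted p = 0.0607). Ch25h, which makes an antiviral oxysterol, had 715, 1062 and 791 in MACA lungs, against 408, 125, 105 and 115 in BSA lungs (log2 fold 2.29 ± 0.42, adjusted p = 0.0036). Pigr, Timp1 and Ch25h kept their calls with the set as a term (adjusted p = 0.0143, 0.0185 and 0.0173).

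In complement 4 of 17 genes rose and Hc, complement C5, fell, and in coagulation 3 of 21 rose and Vwf, von Willebrand factor, fell. Without BSA replicate 1 the counts were 4 and 0, and 6 and 2, with the set as a term 4 and 1, and 3 and 1, and within the high set 4 and 0, and 0 and 1. Without MACA replicate 2 they were 4 and 0, and 1 and 0. Cfb, factor B of the alternative pathway, had 1024, 1668 and 1270.5 in MACA lungs, against 446, 138, 166 and 232 in BSA lungs (log2 fold 2.46 ± 0.35, adjusted p = 0.000725). C3ar1, the receptor of the fragment C3a, had 152, 302 and 201 in MACA lungs, against 86.7, 88.7, 99.3 and 108 in BSA lungs (log2 fold 1.02 ± 0.17, adjusted p = 0.0016). The gap between groups was wide for Cfb, where replicate 1 was the highest BSA lung, and for C3ar1 replicate 1 was the lowest BSA lung. F10, coagulation factor X, had 322, 339 and 266 in MACA lungs, against 167, 102, 57.9 and 98.1 in BSA lungs (log2 fold 1.48 ± 0.34, adjusted p = 0.0129, and adjusted p = 0.0628 without MACA replicate 2). Thbs1, an adhesive glycoprotein, had 1475, 1714 and 1548 in MACA lungs, against 1105, 542, 574 and 593 in BSA lungs (log2 fold 1.21 ± 0.23, adjusted p = 0.0042). Of 18 endothelial adhesion and activation genes 3 rose and 2 fell, with the same counts without BSA replicate 1, 3 and 0 with the set as a term, 0 and 0 within the high set, and 1 and 0 without MACA replicate 2. Those higher were Selp, Icam1 and Itgb2, and those lower Icam2 and Angpt2. Selp, the P-selectin that first catches leukocytes, had 276, 416 and 381 in MACA lungs, against 154, 84.6, 64.7 and 59.4 in BSA lungs (log2 fold 1.87 ± 0.35, adjusted p = 0.0039).

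Of 26 matrix remodelling genes 7 rose and 3 fell, 9 and 4 without BSA replicate 1, 5 and 1 with the set as a term, 2 and 0 within the high set, and 4 and 0 without MACA replicate 2. Mmp12, the macrophage elastase, had 349.7, 334 and 289.5 in MACA lungs, against 161, 105, 85.6 and 79.9 in BSA lungs (log2 fold 1.50 ± 0.31, adjusted p = 0.00724). Tnc, the repair protein tenascin C, had 910.4, 1171 and 1123 in MACA lungs, against 772, 374, 341 and 364 in BSA lungs (log2 fold 1.25 ± 0.26, adjusted p = 0.00657). Mmp2, the gelatinase of fibroblasts, fell, with 1148, 745 and 947 in MACA lungs, against 1254, 1593, 1508 and 1565 in BSA lungs (log2 fold -0.65 ± 0.14, adjusted p = 0.00977, and adjusted p = 0.0728 without MACA replicate 2). Of 20 genes of leukotrienes and prostaglandins 3 rose and 2 fell, 2 and 2 without BSA replicate 1, 2 and 1 with the set as a term, and 1 and 1 within the high set or without any one of 5 other arrays. Ltc4s, which makes the cysteinyl leukotriene LTC4, had 29.1, 30.7 and 33.1 in MACA lungs, against 106, 132, 218 and 156 in BSA lungs, and 74.3 to 179 in HBSS lungs. It was at least 2.88-fold lower (adjusted p = 0.0013), with the 3 MACA lungs all under the noise level and the BSA lungs all above it. Ptger4, a prostaglandin E2 receptor, had 572, 776 and 656 in MACA lungs, against 369.5, 301, 323 and 328 in BSA lungs (log2 fold 0.97 ± 0.16, adjusted p = 0.0016).

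Metallothionein and Nrf2 target genes moved in both directions, with 4 of 19 higher and 1 lower, 4 and 1 without BSA replicate 1, 3 and 1 with the set as a term, 0 and 4 within the high set, and 1 and 0 without MACA replicate 2. Mt2, a metal-binding protein, had 1947, 3816 and 3611 in MACA lungs, against 2483, 518, 453 and 503 in BSA lungs, and overlapped through replicate 1 (log2 fold 2.00 ± 0.44, adjusted p = 0.00954). Without that lung its fold was 2.57, and without MACA replicate 2 its call was lost (adjusted p = 0.0586). Nqo1, a quinone reductase and textbook Nrf2 target, had 71.3, 55.2 and 30.2 in MACA lungs, against 141, 181, 105 and 89.1 in BSA lungs and fell (log2 fold -1.09 ± 0.27, adjusted p = 0.0171), a call lost without MACA replicate 2 (adjusted p = 0.0568) or 3 (adjusted p = 0.0902). Detoxification enzymes of club cells and the glutathione system counted 0 higher and 7 lower of 27, 11 lower without BSA replicate 1, 6 with the set as a term, 4 lower and 2 higher within the high set, and 6 to 8 lower without any other array, with a median log2 fold of -0.41. After Gsta2, the largest falls were in Aldh3a1, Ephx1 and Gsta4. Aldh3a1, an aldehyde dehydrogenase, had 140.1, 208 and 175 in MACA lungs, against 301, 378, 389 and 367 in BSA lungs (log2 fold -0.98 ± 0.24, adjusted p = 0.0181, and adjusted p = 0.0771 without MACA replicate 1). Ephx1, an epoxide hydrolase, had 1296, 1286 and 1428 in MACA lungs, against 1947, 2167, 2640.1 and 2118 in BSA lungs (log2 fold -0.72 ± 0.10, adjusted p = 0.000827). Gsta4, a glutathione transferase, had 1083, 1287 and 1354 in MACA lungs, against 1968, 2031, 1987 and 1988 in BSA lungs (log2 fold -0.68 ± 0.13, adjusted p = 0.00474). No group overlapped in these, and the 4 BSA values of Gsta4 lay close together. Cyp2f2, a cytochrome of club cells, had 8183, 8895 and 9221 in MACA lungs, against 2814, 3823, 11238 and 9364 in BSA lungs and did not pass (adjusted p = 0.344), with BSA replicates 1 and 2 below replicates 3 and 4, the split of the hybridization-control sets.

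Muscle markers had the highest share of falls among the lists in the fit of all arrays. Of 24 cardiac and skeletal muscle markers 14 fell and 0 rose, 13 without BSA replicate 1, 5 with the set as a term, 3 within the high set, where 1 rose, and 4 without MACA replicate 2, and the median log2 fold was -1.13. With the set as a term and BSA replicate 1 left out, 3 muscle markers fell. Cardiac muscle surrounds the pulmonary veins of the mouse lung, so that its genes can be measured in whole lung. The list also holds skeletal muscle markers, and the tissue the signal came from was not tested. The summed intensity of the list was 7387 to 9796 in MACA lungs, against 14979 to 20826 in BSA lungs, with no overlap. Tcap, the titin cap protein, had 74.3, 47.7 and 64.4 in MACA lungs, against 249.7, 243, 329 and 375 in BSA lungs (log2 fold -2.00 ± 0.23, adjusted p = 0.000136). Pln, phospholamban of the cardiac calcium pump, had 84.2, 44.7 and 69.0 in MACA lungs, against 209.6, 208, 288 and 297 in BSA lungs (log2 fold -1.71 ± 0.26, adjusted p = 0.00118). No MACA lung reached the lowest BSA lung for either gene. Myh6, the atrial myosin heavy chain, had 835, 697 and 1034 in MACA lungs, against 1933, 2097, 2241 and 2961 in BSA lungs (log2 fold -1.42 ± 0.27, adjusted p = 0.00418). Sln, sarcolipin, had 284, 226 and 320.3 in MACA lungs, against 690.4, 611, 813 and 993 in BSA lungs (log2 fold -1.43 ± 0.30, adjusted p = 0.00742, and adjusted p = 0.0512 without MACA replicate 2). Mb, myoglobin, had 116, 129.7 and 208 in MACA lungs, against 437, 386, 609 and 583 in BSA lungs (log2 fold -1.65 ± 0.47, adjusted p = 0.0354), a call lost with the set as a term (adjusted p = 0.136), without MACA replicate 1 (adjusted p = 0.111) or 2 (adjusted p = 0.13) and without BSA replicate 3 (adjusted p = 0.0836) or 4 (adjusted p = 0.0847). In the HBSS lungs Mb had 161 to 586 units and Tcap 206 to 332, so that the lowest HBSS lungs were nearer the MACA range for Mb than for Tcap.

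Of 14 fat markers 4 fell and 0 rose, 6 fell without BSA replicate 1, 2 with the set as a term or within the high set, and 1 without MACA replicate 2. The 4 were Car3, Fabp4, Cox8b and Cidea. Their median log2 fold was -0.93, and -0.22 with dim members at their bound. The summed intensity was 632 to 722 in MACA lungs, against 1416 to 9501 in BSA lungs, a spread among BSA lungs wider than the gap between groups. Besides Car3, Fabp4, the fatty acid binding protein of fat cells, had 87.9, 82.2 and 139 in MACA lungs, against 259, 389, 1674 and 403 in BSA lungs (log2 fold -2.19 ± 0.58, adjusted p = 0.0257). The call of Fabp4 was lost with the set as a term (adjusted p = 0.103) and without MACA replicate 1 (adjusted p = 0.0746) or 2 (adjusted p = 0.106) or BSA replicate 3 (adjusted p = 0.064). Adipoq, the hormone adiponectin, had 6.09, 9.22 and 19.9 in MACA lungs, against 31.9, 94.5, 770.3 and 81.7 in BSA lungs and was not past the threshold (adjusted p = 0.0836). For both genes BSA replicate 3 was the highest lung. Among 25 fatty acid and lipid storage genes, some of them in the fat list too, 6 fell and 1 rose, 7 and 2 without BSA replicate 1, 3 and 1 with the set as a term, and 3 and 0 within the high set or without MACA replicate 1 or 2. The one that rose was Lpl, lipoprotein lipase, with 3724, 3242 and 2947 in MACA lungs, against 2523, 2322, 2489 and 2348 in BSA lungs (log2 fold 0.44 ± 0.10, adjusted p = 0.0151), a call lost without MACA replicate 1 (adjusted p = 0.0747) or 2 (adjusted p = 0.0571). Among 24 oxidative phosphorylation genes 4 fell and 1, Cox5a, rose, 3 and 1 without BSA replicate 1, 1 and 0 with the set as a term, and 0 and 0 within the high set or without MACA replicate 2. The largest falls were in Cox8b and Cox7a1, the muscle forms of cytochrome oxidase subunits (log2 fold -1.10 ± 0.23 and -0.94 ± 0.21, adjusted p = 0.00736 and 0.0117). Both calls were lost without MACA replicate 2 (adjusted p = 0.0553 and 0.0647), and that of Cox7a1 with the set as a term (adjusted p = 0.0513).

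Fibroblast and smooth muscle markers counted 7 lower of 25 and 0 higher, 8 lower without BSA replicate 1, 7 with the set as a term, 4 within the high set and 3 without MACA replicate 2. Mfap5, a microfibril glycoprotein, had 296, 279 and 389 in MACA lungs, against 563, 819, 933 and 926 in BSA lungs (log2 fold -1.28 ± 0.16, adjusted p = 0.000429). Dcn, the proteoglycan decorin, had 869.9, 751 and 1143 in MACA lungs, against 1730.2, 1940.3, 2562 and 2661 in BSA lungs, and 1624 to 2223 in HBSS lungs (log2 fold -1.25 ± 0.19, adjusted p = 0.00118). Inmt, a methyltransferase of lung fibroblasts, had 8249, 6813 and 7702 in MACA lungs, against 10981, 11117, 10575 and 10763 in BSA lungs (log2 fold -0.52 ± 0.05, adjusted p = 8.81e-05). For Mfap5, Dcn and Inmt every MACA lung was under every BSA lung. The BSA values of Inmt lay near the top of the range, where quantile normalization sets values by rank. The size of its fold and its small SE are to be read with that limit. Lum, the proteoglycan lumican, fell (log2 fold -0.82 ± 0.22, adjusted p = 0.0257), a call lost without MACA replicate 1 (adjusted p = 0.0526) or 2 (adjusted p = 0.147) or BSA replicate 2 (adjusted p = 0.0627). The collagen genes did not pass: Col1a1 and Col3a1 had log2 folds of 0.12 ± 0.22 and 0.01 ± 0.14 (adjusted p = 0.807 and 1), and the smooth muscle actin Acta2 0.01 ± 0.13 (adjusted p = 0.99). These 3 were chosen after their values were seen.

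**Figure D3:**
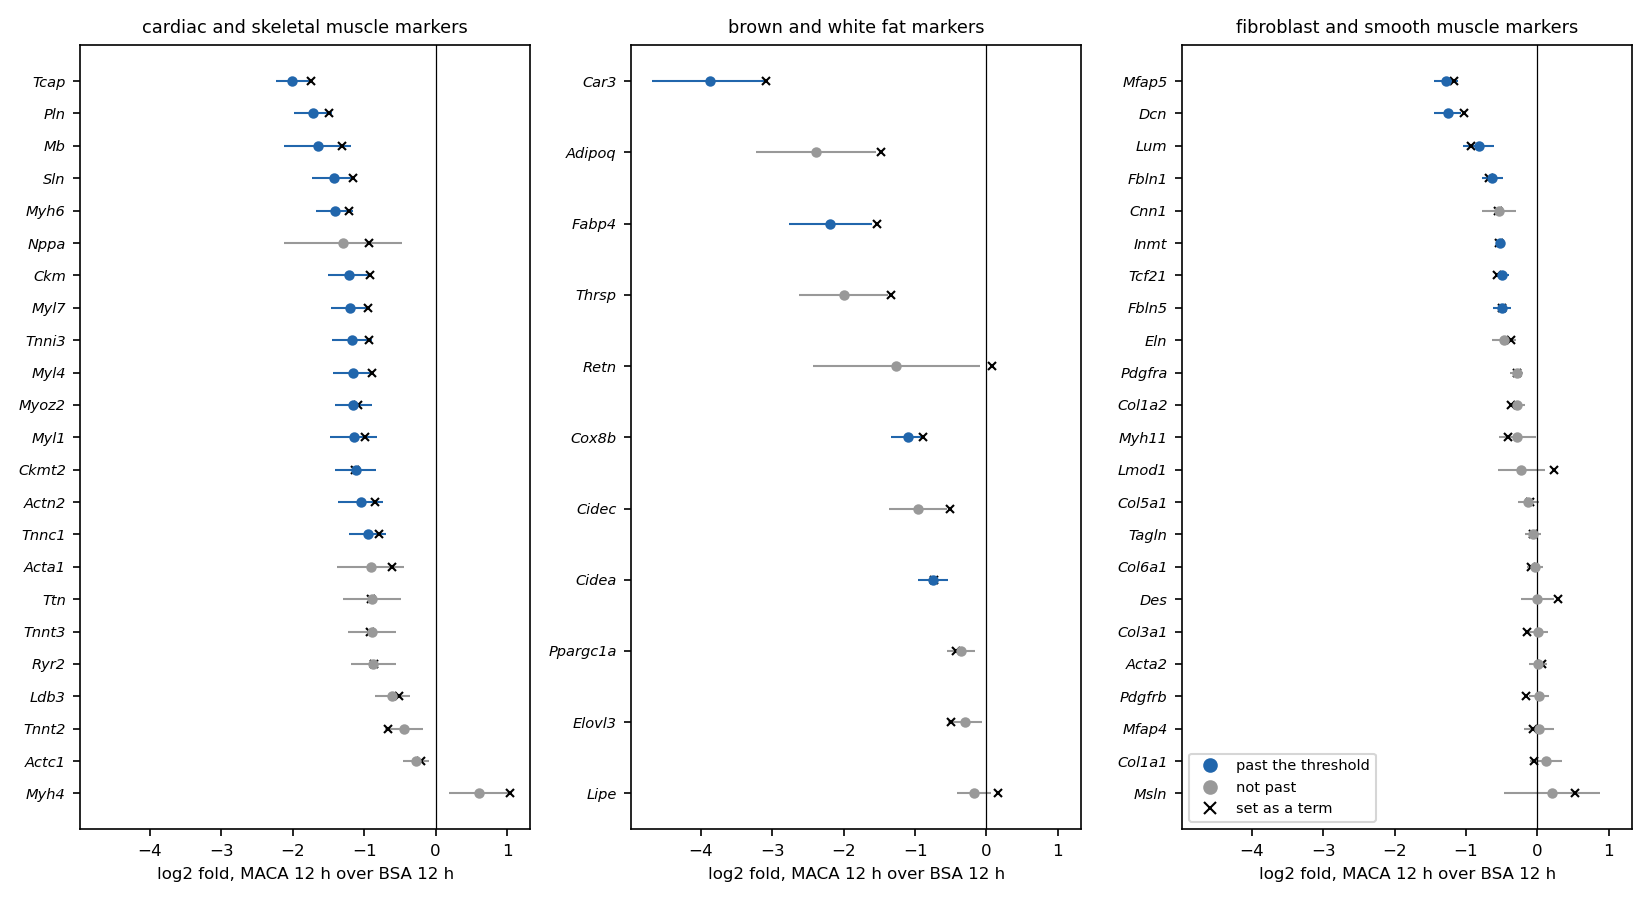
Log2 fold of MACA 12 h over BSA 12 h (x axis, point with SE bar) for measured muscle, fat and fibroblast markers, 1 gene per row, leaving out genes dim in both groups. Blue points passed the threshold, grey points did not, and crosses give the fold with the hybridization-control set as a term, where 5 muscle, 2 fat and 7 fibroblast markers pass. Folds of genes dim in 1 group, such as Adipoq, are fitted values and no bound.

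Monocyte and macrophage markers counted 6 higher of 22, 8 without BSA replicate 1, 4 with the set as a term or without MACA replicate 2, and 1 within the high set. They were led by Msr1, Marco, Ms4a6d, a membrane protein of macrophages (log2 fold 1.43 ± 0.26, adjusted p = 0.0038), and Itgam, the integrin CD11b, with 108, 152 and 90.8 in MACA lungs, against 63.8, 21.9, 36.4 and 23.5 in BSA lungs (log2 fold 1.38 ± 0.20, adjusted p = 0.000889). Dendritic cell markers counted 6 higher of 20, 6 without BSA replicate 1 or with the set as a term, 3 within the high set and 2 without MACA replicate 2. Among the 6 was Fscn1, the bundling protein of mature dendritic cells, with 839, 1073 and 944 in MACA lungs, against 449, 457, 134 and 254 in BSA lungs (log2 fold 1.65 ± 0.36, adjusted p = 0.00879, and adjusted p = 0.0534 without MACA replicate 2). In T and NK cell markers limma called 0 of 24 in either direction, with 0 higher and 3 lower at an unadjusted p under 0.05, and 1 lower without BSA replicate 1. Over all genes 4.07% were higher and 5.58% lower, and the counts of the lists that follow in this paragraph lie near those shares. Among B cell markers Fcer2a alone of 15 rose (2 with the set as a term and 0 within the high set). Among eosinophil, basophil and mast cell markers Rnase2a alone of 16 rose (1 higher and 1 lower within the high set). Of these 16 markers 11 were at or under the noise level in both groups. Of 21 alveolar markers 1, Muc1, was higher and 2, Lpcat1 and Cav1, were lower, 2 and 1 with the set as a term or within the high set. Of 17 airway markers Pigr rose and Aldh3a1 fell, 3 and 0 within the high set. Of 23 endothelial markers Robo4 rose and Vwf and Ednrb fell, 1 and 3 without BSA replicate 1, 1 and 1 with the set as a term, and 0 and 1 within the high set. When 1 of the 7 arrays was left out, the call of Cav1 was lost in each of the 7 fits (adjusted p = 0.0516 without BSA replicate 1 and 0.0643 to 0.165 in the others). For the others the number of fits that lost a call was 6 for Vwf, 4 for Lpcat1, 2 for Robo4, 1 for Muc1 and 0 for Ednrb. Without MACA replicate 2 no alveolar marker passed (0 of 21), and of the endothelial markers Ednrb alone. Ednrb, the endothelin receptor of lung capillaries, had 297, 149 and 192 in MACA lungs, against 449, 509, 688 and 342 in BSA lungs, the largest endothelial fall (log2 fold -1.17 ± 0.21, adjusted p = 0.00348). In erythroid and platelet markers Ppbp alone of 12 fell. In thymus and lymph node markers Cd1d1 alone of 10 fell. Both lists had 0 within the high set, as had the thymus and lymph node markers with the set as a term.

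DNA replication and mitosis genes counted 4 higher of 31, Ccnd1, Mcm2, Mcm5 and Mcm6, with 3 without BSA replicate 1, with the set as a term or within the high set, and 1 without MACA replicate 2. The replication helicase subunit Mcm5 had 252, 359 and 280.2 in MACA lungs, against 152, 98.4, 149.5 and 160.3 in BSA lungs (log2 fold 1.01 ± 0.17, adjusted p = 0.00178). Mcm6, of the same helicase, had a fold of 0.94 ± 0.19 (adjusted p = 0.00717, and 0.0564 without MACA replicate 2). Of 23 ribosome biogenesis genes Nolc1, Bop1 and Ddx21 rose, 7 without BSA replicate 1, 2 with the set as a term, and 1 within the high set or without MACA replicate 2. Of 19 heat shock genes Hsph1, Stip1 and Serpinh1 rose. Of 24 unfolded protein response genes Dnajb11 and Hyou1 rose and Ddit4 fell. Of 15 cholesterol genes Dhcr7 rose, and of 20 tight junction genes Krt7, counts near the 4.07% of all genes that were higher. Cldn4, an epithelial claudin, had 27.6, 43.1 and 17.8 in MACA lungs, against 351, 331, 74.4 and 38.1 in BSA lungs and did not pass (adjusted p = 0.0831), with the BSA lungs split as in the hybridization-control sets (adjusted p = 0.00263 within the high set). Of 24 immediate early genes Junb, Egr2 and Maff rose and Nr4a2 fell. Without MACA replicate 2 these 5 lists counted 2, 1, 0, 0 and 1 higher, in the order given. Without BSA replicate 1 they counted 3, 2, 1, 1 and 4 higher and 1, 0, 0, 0 and 1 lower. With the set as a term they counted 2, 1, 0, 1 and 2 higher and 0 lower, and within the high set 1, 1, 0, 1 and 1 higher and 0, 4, 0, 3 and 2 lower. Of 18 glucocorticoid-responsive genes Lcn2, Mt1, Mt2 and Cebpd rose and Klf9, Klf15, Ddit4 and Errfi1 fell, with 5 and 1 without BSA replicate 1, 2 and 2 with the set as a term, 0 and 1 within the high set, and 0 and 0 without MACA replicate 2. Klf9, a hormone-responsive repressor, had 1913, 1895 and 2522 in MACA lungs, against 4154, 4587, 3429 and 4528 in BSA lungs (log2 fold -0.98 ± 0.23, adjusted p = 0.0153), a call lost without MACA replicate 1 (adjusted p = 0.0548) or 2 (adjusted p = 0.077). Of 17 clock genes Bhlhe40, a repressor of clock output, rose (log2 fold 1.03 ± 0.17, adjusted p = 0.00204), and Per3, Rora and Tef fell, with 1 and 4 without BSA replicate 1 or with the set as a term, and 1 and 3 within the high set. Per3 was at least 1.31-fold lower (adjusted p = 0.00977, and 0.0519 without MACA replicate 1). With 1 of the 7 arrays left out, the number of fits in which a call was lost was 6 for Ddit4, 5 for Mcm2 and Nolc1, 4 for Ddx21, Hsph1, Hyou1 and Dhcr7, 3 for Krt7, 1 for Ccnd1 and 0 for Bop1, Stip1, Serpinh1 and Dnajb11. It was 5 for Tef, Cebpd, Klf15 and Errfi1, 4 for Junb and Egr2, 3 for Nr4a2, 1 for Rora and Mt1 and 0 for Maff. Among members of earlier lists it was 6 for Angpt2 and Cidea, 5 for Cd1d1, 4 for Icam2, Hc and Cox5a, 3 for Itgb2 and 1 for Icam1.

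**Figure D4:**
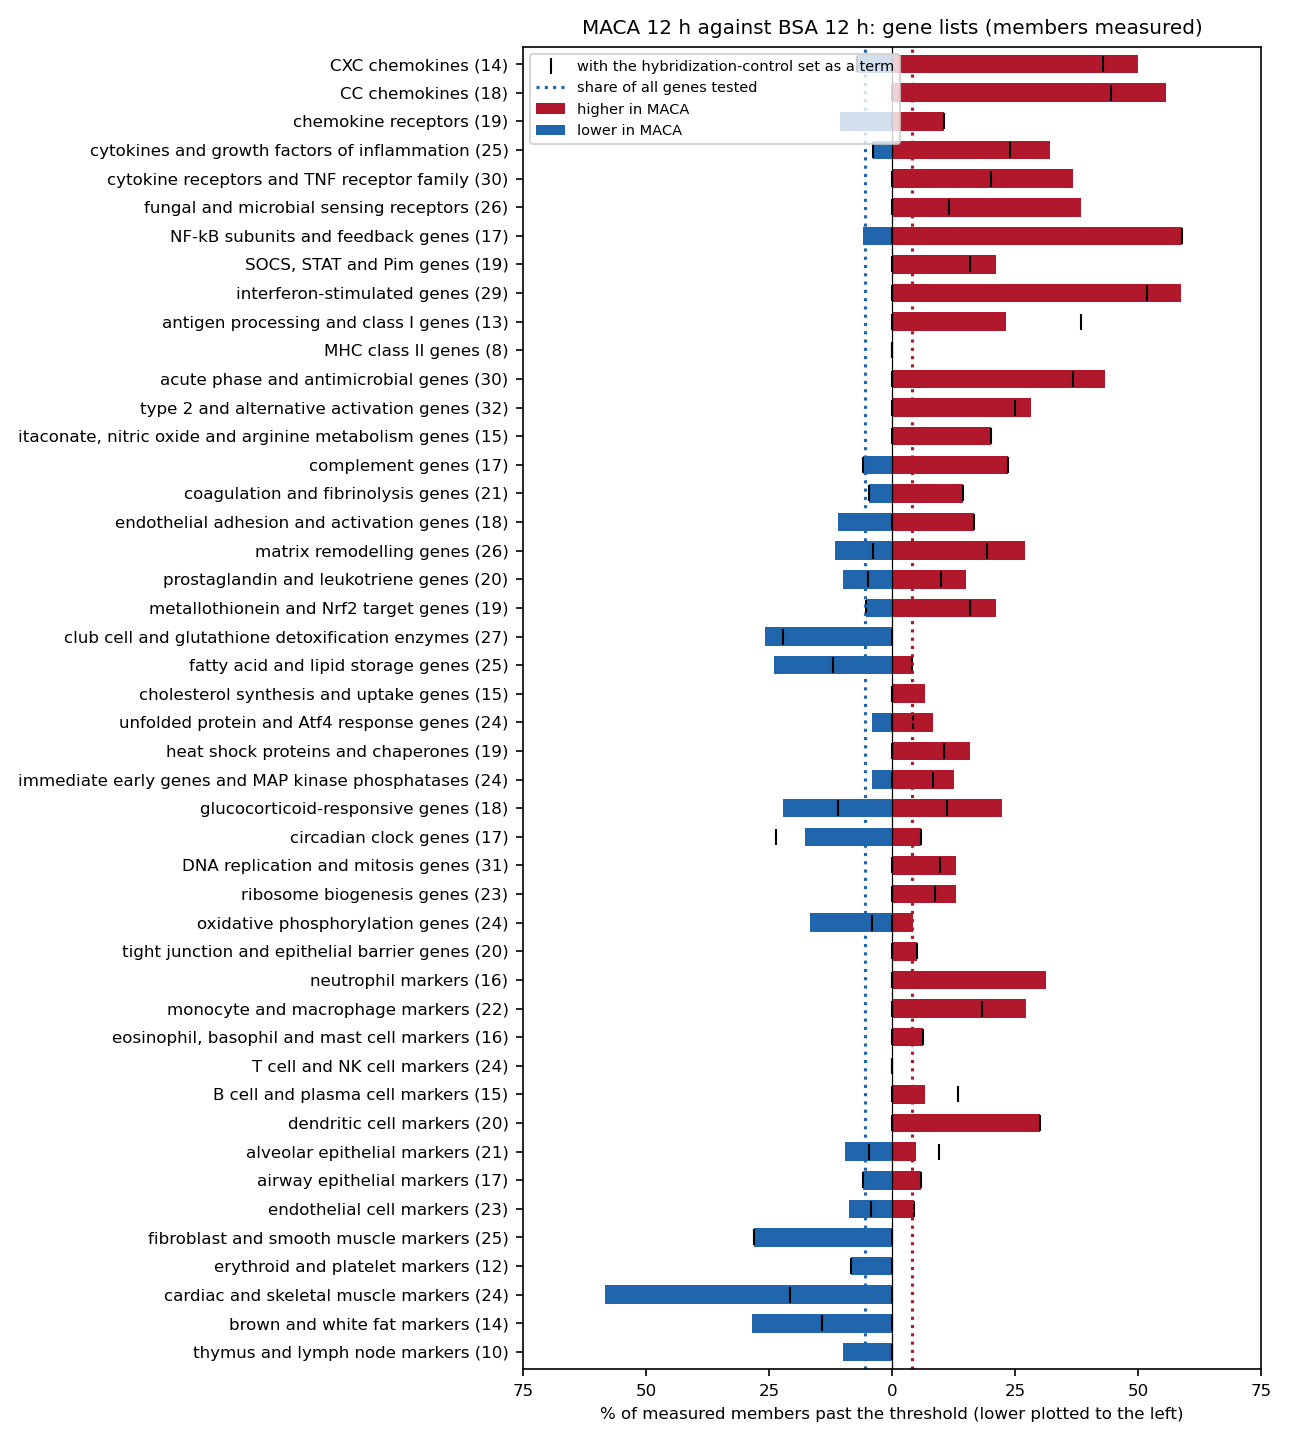
Share of measured members past the threshold in each list (x axis, percent, higher in MACA to the right in red and lower to the left in blue), with dotted lines for the share of all genes tested, 4.07% and 5.58%, and black ticks for the fit with the hybridization-control set as a term. NF-kB and interferon-stimulated genes reach furthest to the right, with 10 of 17 and 17 of 29 members, and cardiac and skeletal muscle markers furthest to the left, with 14 of 24.

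The same contrast at 3 h, on other arrays, called 738 genes (5.95%), 434 higher (3.5%) and 304 lower (2.45%), in the fit without the set as a term. At 3 h MACA replicates 3 and 4 were in the low hybridization-control set (ratios 1.101 and 1.11), and all BSA arrays were in the high set. At 12 h the low arrays were in the BSA group instead, so that the imbalance of the set was opposite at 3 h and 12 h. Whether a gene's difference at 12 h differed from that at 3 h was tested as an interaction, which called 89 genes (0.718%), 27 larger (0.218%) and 62 smaller or more negative (0.5%) at 12 h. This count was unstable: it was 2 with the set as a term, and 0 without scaling between arrays, where 600 genes had an unadjusted p under 0.05. It ran between 6 and 220 when 1 of the 14 arrays was left out. With the set as a term Zfp46 was the one gene named here that passed (adjusted p = 0.0398), and the others had adjusted p of 0.0858 to 0.341. The calls of Mob3b, Inmt, Slc7a10, Adm and Zfp46 held whichever array was left out, and those of the others were lost in 1 to 11 of the 14 fits.

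Some genes differed more between the groups at 12 h than at 3 h. Differences are 12 h minus 3 h on the log2 scale, and those of Ccl24, Rnase2a and Ltc4s, with a group at the noise level, are fitted values and no bound. Ccl24 had a log2 fold of 0.03 at 3 h, and the difference of the folds was 3.09 ± 0.69 (adjusted p = 0.0479). For Hpx the fold at 3 h was 0.36 and the difference 1.80 ± 0.38 (adjusted p = 0.039). For Rnase2a they were -0.01 and 2.16 ± 0.44 (adjusted p = 0.0368). Mob3b, a MOB kinase activator, had 97.4, 118 and 117 in MACA lungs, against 48.7, 53.0, 63.2 and 52.1 in BSA lungs at 12 h (log2 fold 0.85 ± 0.10, adjusted p = 0.000136), -0.10 at 3 h and a difference of 0.94 ± 0.14 (adjusted p = 0.0116). In these 4 the MACA lungs were further above the BSA lungs at 12 h. Among the genes lower at 12 h, Tcap had a fold of -0.10 at 3 h and a difference of -1.91 ± 0.32 (adjusted p = 0.0303). For Dcn the values were 0.06 and -1.31 ± 0.27 (adjusted p = 0.0374), for Inmt -0.06 and -0.47 ± 0.07 (adjusted p = 0.0188), and for Ltc4s 0.11 and -1.92 ± 0.40 (adjusted p = 0.039). None of the 4 was past the threshold at 3 h, where the adjusted p was 0.599 to 0.914. The limit given above for Inmt, with BSA values at 12 h near the top of the range, holds for its difference too. Slc7a10, a neutral amino acid transporter, was higher at 3 h (log2 fold 0.72, adjusted p = 0.0241) and lower at 12 h (log2 fold -0.95 ± 0.17, adjusted p = 0.00365), and so was Man2b1, a lysosomal mannosidase (log2 folds 0.26 and -0.32, adjusted p = 0.0409 and 0.00901). Fcgrt, the neonatal Fc receptor that recycles albumin and IgG, had 627, 502 and 569 in MACA lungs, against 879, 907, 961 and 896 in BSA lungs at 12 h (log2 fold -0.68 ± 0.09, adjusted p = 0.000646) and 0.09 at 3 h (adjusted p = 0.0308 for the difference). Slc38a5, a glutamine transporter, had -1.02 ± 0.14 at 12 h (adjusted p = 0.000606) and 0.12 at 3 h (adjusted p = 0.0308 for the difference).

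Other genes differed more between the groups at 3 h than at 12 h. Cd83, a marker of mature dendritic cells, had 315, 387 and 379 in MACA lungs, against 213, 174, 203 and 184 in BSA lungs at 12 h (log2 fold 0.84 ± 0.22). Its fold at 3 h was 2.93, and the difference was -2.08 ± 0.31 (adjusted p = 0.0124). Its call at 12 h (adjusted p = 0.0248) was lost without MACA replicate 2 (adjusted p = 0.104) or 3 (adjusted p = 0.077) or BSA replicate 2 (adjusted p = 0.054) or 4 (adjusted p = 0.061). Adm, the vasodilator peptide adrenomedullin, had 0.51 at 12 h (adjusted p = 0.179) and 2.73 at 3 h, with a difference of -2.22 ± 0.33 (adjusted p = 0.0116). Zfp46, a zinc finger gene, had 0.05 at 12 h (adjusted p = 0.871) and 1.45 at 3 h, with a difference of -1.40 ± 0.17 (adjusted p = 0.00426). Tnfaip3, the ubiquitin-editing brake on NF-kB, had 0.89 ± 0.24 at 12 h (adjusted p = 0.03) and 2.57 at 3 h (adjusted p = 0.0368 for the difference). Its call at 12 h was lost without MACA replicate 1 (adjusted p = 0.124) or 2 (adjusted p = 0.109) or BSA replicate 2 (adjusted p = 0.07) or 4 (adjusted p = 0.0792). Of the lists, immediate early genes counted 3 higher of 24 at 12 h and 12 at 3 h, NF-kB genes 10 and 14 of 17, muscle markers 14 lower at 12 h and 0 at 3 h, and detoxification enzymes 7 lower at 12 h and 0 at 3 h. Over all genes 4.07% were higher and 5.58% lower at 12 h, and 3.5% and 2.45% at 3 h. For lists of this size the counts of 0 lower at 3 h lie near that share. All these counts come from the fit without the set as a term, and those at 12 h and 3 h were not tested against each other.

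**Figure D5:**
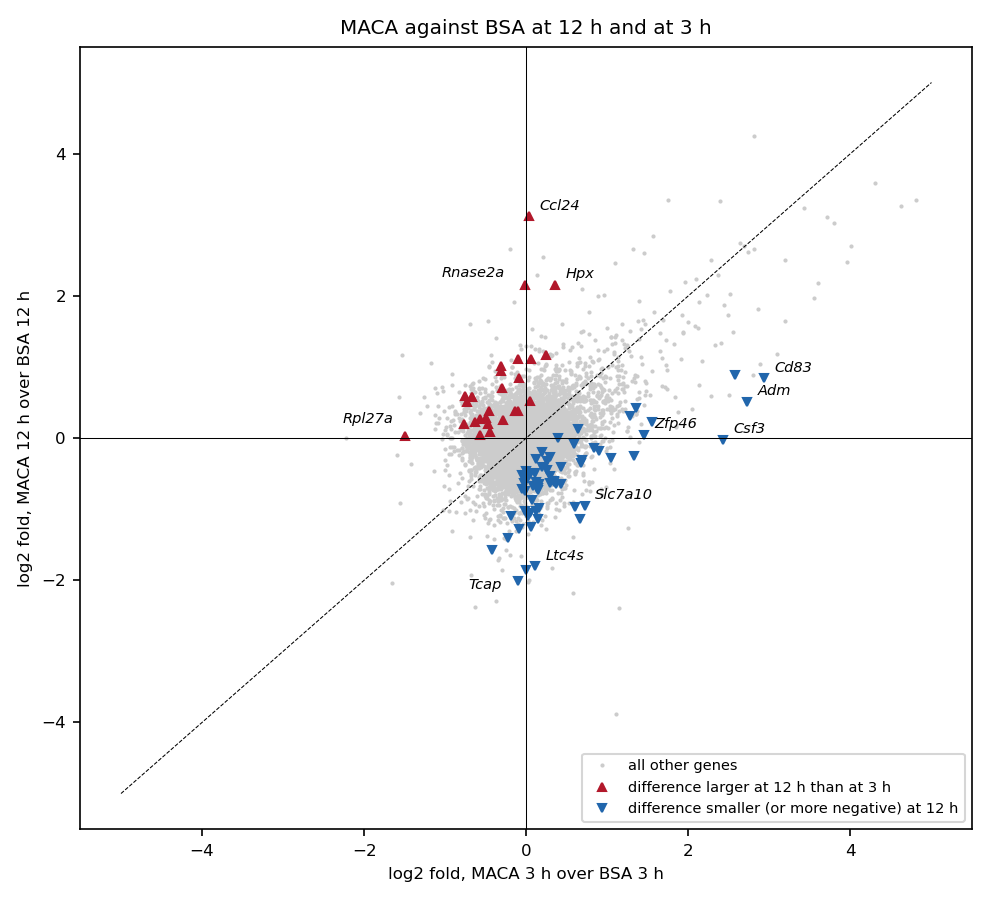
Log2 fold of MACA over BSA at 12 h (y axis) against that at 3 h (x axis), 1 point per gene, with triangles for the 89 genes whose difference between times passed the threshold and a dashed line of equal folds. Ccl24, Hpx and Rnase2a lie high on the y axis at small values of x, while Cd83 and Adm lie far to the right with small folds at 12 h.

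The contrasts with vehicle share arrays with the one above and are given as values beside it. All MACA 12 h arrays were in the high hybridization-control set and all HBSS 12 h arrays in the low set. Between these groups the agent and the set cannot be told apart, and the counts and folds below come from the fit without the set as a term. MACA against HBSS at 12 h called 2509 genes (20.2%), 1258 higher (10.2%) and 1251 lower (10.1%), and BSA against HBSS called 167 (1.35%), 69 higher (0.557%) and 98 lower (0.791%). For Cxcl10 the log2 fold was 3.69 for MACA over HBSS and 0.34 for BSA over HBSS, for Ccl2 3.79 and 0.53, for Saa1 4.55 and 0.31, for Timp1 3.72 and 1.05, and for Tcap -1.85 and 0.15. HBSS replicate 3 was raised in some of the same genes as BSA replicate 1, with 1698 units of Saa3, against 105 to 241 in the other HBSS lungs.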

How the data were processed

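Deposited values were intensity on a linear scale per probe set, with 9.37 to 11.1% of each array below 0. How the authors scanned, summarised and scaled the arrays is not stated in the labels. Per the labels' protocols, total RNA of frozen left lungs was made into biotin-labelled cRNA. Array medians ran from 93.5 to 288, so the 21 arrays were quantile-normalized, with values below 0 then set to 0. Control probe sets (64 of 22690) were left out. Names came from the platform table, updated by RefSeq gene number: 20380 probe sets had 1 symbol, 691 several and 1555 none. Of each of 12393 genes the brightest probe set was used, and for 2 genes (Srgap2 and Mtmr9) another probe set passed in the opposite direction.

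limma 3.58.1 (R 4.3.3) was fitted to log2(value + 16) of all 21 arrays in 6 groups, which share 1 spread (15 residual degrees of freedom), and was tested on simulated data. The labels call the arrays biological replicates, and their small number limits the precision. The noise level is the 95th percentile of the size of values below 0. Alternatives were the scaling, the pseudocount, a filter on dim genes, the mean of probe sets, an intensity trend, a replicate block, the control-ratio set as a term or alone, fewer arrays, and each array left out. The replicate numbers did not pair the samples.

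Members and lists were chosen with earlier results of these data known. Named genes were drawn from the 25 highest and 15 lowest folds past the threshold without overlap. For each list they were drawn from up to 4 members past it and 2 not past it with the largest folds. The rule also took the 10 smallest p of the difference between times, and 8 genes for the check of BSA replicate 1. Not every gene under this rule is named: 154 of the 171 genes named passed, and many lists name no member that did not pass. Outside this rule, Sftpc, Scgb1a1, Cyp2f2, Cxcl2, Il33, Csf1, Il18, Traf1, Steap4, Saa4, Pdcd1lg2, Clca1, Mmp2, Myh6, Lpl, Klf9, Tnfaip3, Ccr4, Cebpd, Errfi1, Hc, Icam2, Rnase2a, Slc38a5, Col1a1, Col3a1 and Acta2 were chosen after their values were seen.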

Additional observations from a re-analysis of the deposited data

Results flagged for a closer look

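The ratio given is the gap between the highest or lowest array and its nearest neighbour over the whole range of the group, on the log2 scale, which chance puts past the limit for 4 arrays in about 1 in 20 groups. BSA 12 h replicate 1 stood above the other BSA lungs for Ccl2 (0.851), Timp1 (0.865), Saa1 (0.855), Acod1 (0.957), Ccr1 (0.904), Cxcr2 (1.00), Il1r2 (0.848), Lcn2 (0.837), Aldh1a3 (0.884), Ch25h (0.882), Thbs1 (0.874), Tnc (0.89) and Mt2 (0.922). HBSS 12 h replicate 3 stood above the other vehicle lungs for Acod1 (0.93), Tnfrsf9 (1.00), Ifit1 (0.92), Cxcr2 (1.00), Iigp1 (0.878), Steap4 (0.834) and Selp (0.85). The gap was also past the limit for Lum (0.913) with BSA 12 h replicate 2 above the others, for Ccl22 (0.948) and Mcm5 (0.854) with BSA 12 h replicate 2 below the others and for Saa4 (0.85) with BSA 12 h replicate 3 above the others. It was so too for Scgb1a1 (1.00) with BSA 12 h replicate 4 above the others, for Bex2 (0.836) with BSA 12 h replicate 4 below the others and for Pdcd1lg2 (0.858) with HBSS 12 h replicate 1 above the others. It was so too for Cxcl9 (1.00) and Ddx21 (0.965) with HBSS 12 h replicate 2 above the others, for Ppp1r1b (0.923) with HBSS 12 h replicate 2 below the others, for Ccnd1 (0.839) with HBSS 12 h replicate 4 above the others and for S100a8 (0.895) with HBSS 12 h replicate 4 below the others. The value of Scgb1a1 is at the top of the range, where quantile normalization sets values by rank. For Cxcr2 in BSA lungs the ratio of 1.00 arises because the other arrays were set to 0. The rate of 1 in 20 does not hold for values set to 0. All 171 genes named were screened in BSA and HBSS lungs, so that some such gaps would be found by chance.

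Among the genes named, the log2 fold of MACA over BSA differed between 12 h and 3 h for 23, by the interaction test. The difference, 12 h minus 3 h, was positive for 6: 3.09 for Ccl24, 2.16 for Rnase2a, 1.80 for Hpx, 1.24 for Hyou1, 0.94 for Mob3b and 0.48 for Stip1. It was negative for 17: -2.22 for Adm, -2.08 for Cd83, -1.92 for Ltc4s, -1.91 for Tcap, -1.86 for Scara5, -1.69 for Tnfaip3, -1.67 for Slc7a10, -1.40 for Zfp46, -1.31 for Dcn, -1.19 for Mfap5, -1.16 for Syt17, -1.14 for Slc38a5, -1.01 for Mmp2, -0.76 for Fcgrt, -0.67 for Ephx1, -0.57 for Man2b1 and -0.47 for Inmt. These calls depend on the scaling and on the control-ratio set, as given with the counts of the interaction.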

How the results depend on the processing

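Of 1196 genes called between MACA and BSA at 12 h, the count was 96 with no scaling, 760 with the control-ratio set as a term, 429 within the high set and 0 on the 7 arrays alone (2439 at an unadjusted p under 0.05), and 398 to 1670 with 1 array left out, fewest without MACA replicate 2 and most without BSA replicate 1. A trimmed mean, other pseudocounts, the mean of probe sets, a dim filter and a trend kept it between 1110 and 1280, and the set as a term without BSA replicate 1 gave 910. The 89 calls of the difference between 12 h and 3 h became 0 with no scaling (600 at an unadjusted p under 0.05), 2 with the set as a term, with or without BSA replicate 1, and 13 within the high set. With 1 array left out they were 6 (BSA 3 h replicate 2) to 220 (BSA 12 h replicate 1), among them 7 without MACA 12 h replicate 2, BSA 12 h replicate 4 or MACA 3 h replicate 3, and 8 without BSA 12 h replicate 3. With the replicate block the counts were 1102 and 13. Same-numbered MACA and BSA arrays at 12 h had correlations of deviations of 0.03, -0.181 and -0.04 over 8911 genes, so that the numbers do not pair the samples.

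Of 171 genes named, 154 passed at 12 h, and none (0) of them changed direction under the alternatives run. As genes were named largely for large folds past the threshold, this lack of reversals follows in part from the choice. The calls of these genes were lost for all 154 on the 7 arrays alone, 114 with no scaling, 91 within the high set, 40 with the set as a term and 71 without MACA replicate 2. The number of arrays limits the precision, and the 2859 genes at or under the noise level in both groups have no measured level. The cause of these shifts was not tested.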
